A study of Mus musculus with 4 samples.

Results

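The Myc-Max network was described here in leukemia stem cells (LSCs) of a mouse MLL-AF9 acute myeloid leukemia with and without CD37, a tetraspanin of the leukocyte surface. Its members are *Myc*, *Max*, *Mnt*, *Mxd1*, *Mxd3*, *Mxd4*, *Mxi1*, *Mlx* and *Mga*, and all 9 were found among the 17104 genes of the deposited expression table. They were chosen from a named gene family with the values of the CD37 -/- against CD37 fl/fl contrast already known, so their own differences are given below as a description without a test. YFP+, c-kit+ LSCs came from the bone marrow of male C57 mice 6 weeks after secondary transplantation, and their poly(A) transcripts were sequenced in 4 libraries, 2 labelled CD37 fl/fl and 2 labelled CD37 -/-. Both groups carried floxed *Cd37* alleles, the tamoxifen-inducible Cre-ERT2 driven from the ubiquitous Rosa26 locus, and the retroviral MLL-AF9 oncogene with its YFP reporter. Per the study's methods, deletion was induced with tamoxifen and the control received corn oil, so genotype and tamoxifen cannot be told apart in this contrast. The sources used here call the replicates independent and do not say whether each is 1 mouse or a pool. The SDs below therefore measure the spread between these samples, whereas the standard errors are moderated by limma over many genes.

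Myc is a basic helix-loop-helix leucine-zipper protein that binds DNA only as a heterodimer with Max, at E-box elements in promoters. Mnt, the Mxd proteins and Mga compete for the same partner Max, and Mnt and the Mxd proteins bring the Sin3 and histone deacetylase corepressor to the same elements. In blood formation, Myc is linked to growth and proliferation of progenitors, whereas *Mxd1* is known to go up as myeloid cells mature. Mlx stands in a parallel arm, in which it pairs with the glucose-responsive Mondo proteins and also with some of the Max antagonists.

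The E-box CACGTG, the element that Myc-Max and Mxd-Max dimers bind, was searched on both strands in the 250 bases before the annotated starts of the members (RefSeq on GRCm38.p6). A promoter was given for 8 of the 9 members, in 10 windows, and *Myc* was not among them. The element was found in the windows of *Mnt*, *Mxd4* and *Mlx*, 123, 219 and 40 bases before the start, while 6.02% of all 32851 promoter windows held it. The variant CACGCG, which reads CGCGTG on the other strand and cannot match at the same bases as CACGTG, was found only in that of *Mga*, 21 bases before the start, and 7.62% of all windows held it. The windows of *Max*, *Mxd1*, *Mxd3* and *Mxi1* held neither set of letters. The matches are shown with their surroundings because they lie in the promoters of the genes whose levels follow. Each is written from 5′ to 3′ along the strand of the gene, with the element in capitals, at chr11:74830774-74830833 (plus strand) for *Mnt*, chr5:34187897-34187956 (minus strand) for *Mxd4*, chr11:101087223-101087282 (plus strand) for *Mlx* and chr2:119897180-119897227 (plus strand) for *Mga*.
Mnt: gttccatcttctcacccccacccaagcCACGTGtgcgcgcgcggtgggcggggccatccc
Mxd4: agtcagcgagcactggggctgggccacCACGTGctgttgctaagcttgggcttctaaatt
Mlx: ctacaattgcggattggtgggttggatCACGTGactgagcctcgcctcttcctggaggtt
Mga: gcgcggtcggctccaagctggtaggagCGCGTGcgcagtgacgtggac

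Levels are given as FPKM (fragments relative to gene length and to the depth of the library). The deposited values came out as whole reads when the kilobases were those of the whole gene, introns included (98.9% or more of the values of each library, where chance gives 10%). The recovered reads summed to 15139063 and 17252340 for the CD37 fl/fl replicates against 17638604 and 22562837 for the CD37 -/- replicates. Reads of single genes given below are not scaled to these sums. All 9 members were whole in all 4 libraries, with 204 to 3648 reads each. *Cd37* itself had an FPKM of 56.6 and 46.8 in CD37 fl/fl against 23.2 and 22.9 in CD37 -/- LSCs, so that 44.6% of the mean was left over the whole gene (log2 fold change -1.12, standard error 0.24, adjusted p = 0.104 by limma with Benjamini-Hochberg adjustment). Replicates were not repeats of 1 library: the chi-square statistic of their reads, divided by its degrees of freedom, was 102 for the CD37 fl/fl pair and 66.2 for the CD37 -/- pair. Log2 fold changes are on the log2(FPKM + 1) scale, CD37 -/- minus CD37 fl/fl, from 1 limma fit over the 6761 genes whose FPKM averaged 1 or more. For its standard errors, limma draws the variance of each gene toward that of genes at a similar level. They can thus be smaller or larger than the spread of a gene's own replicates. The SD within groups on this scale was 0.64 for *Myc* (standard error 0.43) and 0.07 for *Mxi1* (standard error 0.17). In that fit 0 genes (0.0%) had an adjusted p under 0.05, and 1626 (24.0%) had an unadjusted p under 0.05, of which 1088 (16.1% of genes tested) were higher and 538 (7.96%) lower in CD37 -/- LSCs.

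Of the 9 members, 7 had each CD37 -/- value above each CD37 fl/fl value, namely *Myc*, *Max*, *Mnt*, *Mxd1*, *Mxd4*, *Mxi1* and *Mlx*. None was lower in that way, and *Mxd3* and *Mga* overlapped between the groups. Over the 16973 genes above 0, 37.3% were higher without overlap and 17.6% lower. This contrast was known when the members were chosen, so the count is not read against that share. Because the samples are bulk cell populations, fewer cells of a type and less RNA per cell cannot be told apart in any of these values.

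**Figure D1:**
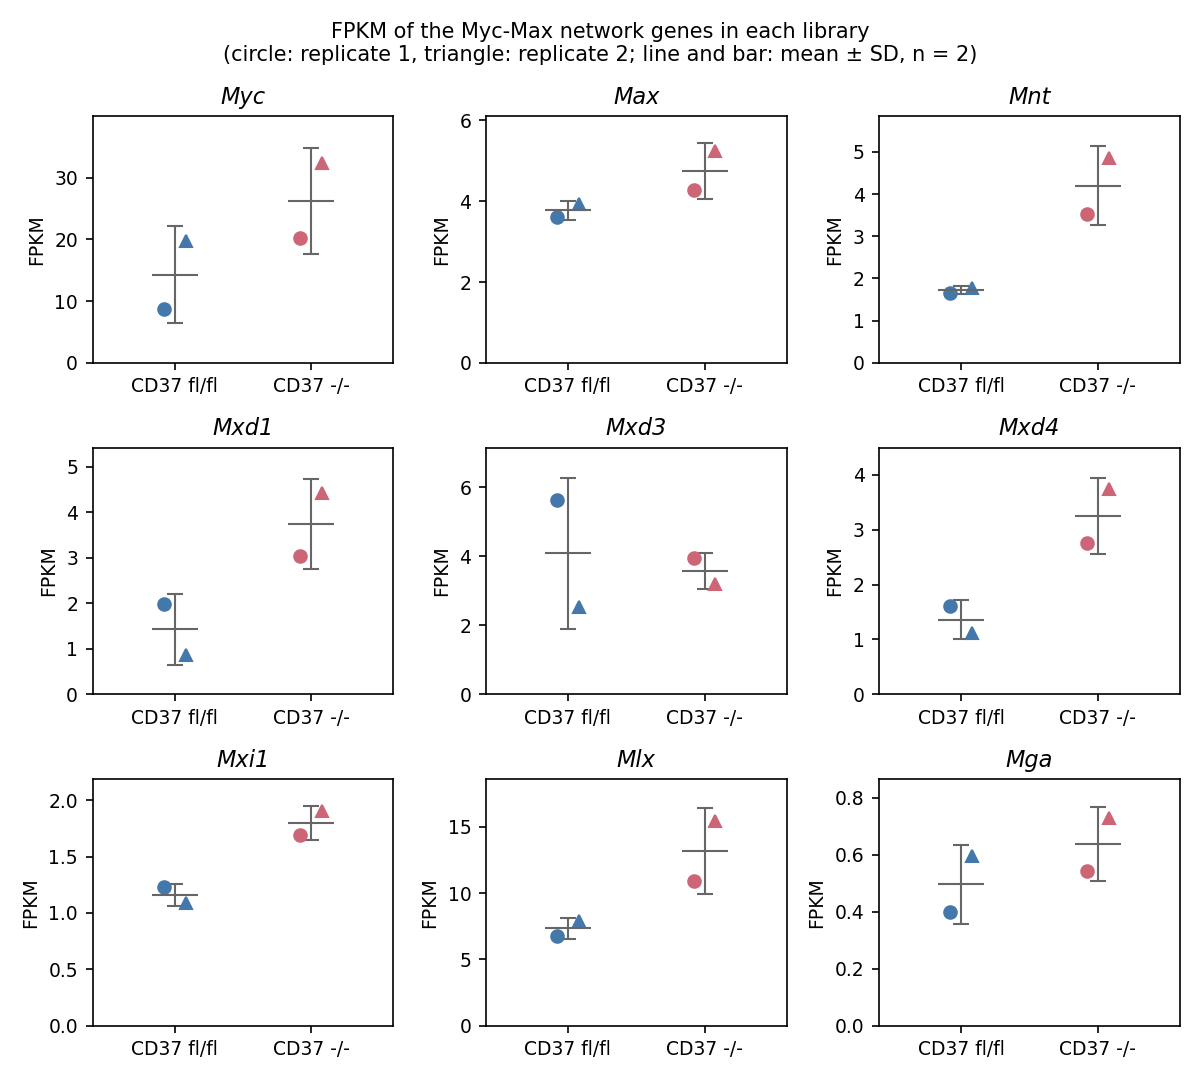
FPKM of the 9 members in each library, with a linear axis from 0 for each gene, 1 point per library (circle for replicate 1, triangle for replicate 2) and the mean ± SD of each group (n = 2). The groups do not overlap for 7 members, and overlap for *Mxd3* and *Mga*. The CD37 fl/fl replicates stand far apart for *Myc* (8.69 and 19.8).

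*Myc* (ENSMUSG00000022346, chr15:61985391-61990374, plus strand, GENCODE M21 on GRCm38) is the activating member. Its FPKM was 8.69 and 19.8 in CD37 fl/fl replicates 1 and 2 against 20.2 and 32.3 in CD37 -/- replicates 1 and 2. The second CD37 fl/fl library was thus at nearly the level of the first CD37 -/- library, and the lowest CD37 -/- value was 1.02 times the highest CD37 fl/fl value. The means were 14.3 ± 7.86 and 26.3 ± 8.61 (SD, n = 2), with a log2 fold change of 0.90 (standard error 0.43). Without CD37 fl/fl replicate 1 it was 0.35, without CD37 -/- replicate 2 it was 0.58, and without CD37 fl/fl replicate 2 it was 1.45. In the limma-voom fit on the recovered reads the groups overlapped and the log2 fold change was 0.73.

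*Max* (ENSMUSG00000059436, chr12:76937269-76962201, minus strand) encodes the shared partner that every dimer of the Myc arm needs. It was measured at an FPKM of 3.61 and 3.93 in CD37 fl/fl against 4.27 and 5.25 in CD37 -/- LSCs, a log2 fold change of 0.27 (standard error 0.19). The 4 values lay close together, and the groups were apart on this scale but overlapped after quantile normalization and in the limma-voom fit.

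*Mnt* (ENSMUSG00000000282, chr11:74830920-74845725, plus strand) is the widely expressed antagonist, present in cycling and resting cells alike. Its FPKM was 1.66 and 1.79 in CD37 fl/fl against 3.54 and 4.86 in CD37 -/- LSCs. Both CD37 fl/fl values were close together and the lowest CD37 -/- value was 1.98 times the highest of them. The ratio of the means was 2.44 and the log2 fold change 0.92 (standard error 0.20), between 0.74 and 1.11 with any 1 library left out.

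*Mxd1* (ENSMUSG00000001156, chr6:86647042-86669161, minus strand) encodes the antagonist known from myeloid maturation. Its FPKM was 1.98 and 0.871 in CD37 fl/fl against 3.04 and 4.43 in CD37 -/- LSCs. The CD37 fl/fl replicates stood 2.27-fold apart, with replicate 2 the lower. The ratio of the means was 2.62 and the log2 fold change 0.99 (standard error 0.29), and it was 0.65 without CD37 fl/fl replicate 2. The late neutrophil markers of the same libraries, summed per kilobase of exons, were also lowest in CD37 fl/fl replicate 2 (10589, against 52799 in replicate 1 and 46001 and 28934 in the CD37 -/- libraries). They included 5 of 10 markers that were higher in CD37 -/- LSCs without overlap and 0 lower. Over all genes above 0, 37.3% were higher in that way and 17.6% lower. The part of these markers in the *Mxd1* values was not tested.

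*Mxd4* (ENSMUSG00000037235, chr5:34173883-34187720, minus strand), another Sin3-recruiting antagonist, had an FPKM of 1.61 and 1.11 in CD37 fl/fl against 2.75 and 3.74 in CD37 -/- LSCs. All CD37 -/- values were above all CD37 fl/fl values, with a log2 fold change of 0.84 (standard error 0.21). *Mxi1* (ENSMUSG00000025025, chr19:53310518-53375810, plus strand), also known as Mxd2, was at 1.23 and 1.09 against 1.69 and 1.90. Its groups did not overlap, and the log2 fold change was smaller at 0.37 (standard error 0.17). *Mxi1* spans 9.57 times the length of its exons, so its FPKM was low for its 1231 to 2808 reads.

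*Mxd3* (ENSMUSG00000021485, chr13:55325168-55329823, minus strand) is the family member known from S phase and proliferating cells, unlike *Mxd1*. Its FPKM was 5.63 and 2.53 in CD37 fl/fl against 3.93 and 3.20 in CD37 -/- LSCs, so that both CD37 -/- values lay between the CD37 fl/fl values. The log2 fold change was -0.09 (standard error 0.32). It turned to 0.27 with every library rescaled to the same sum (TPM), to 0.37 without CD37 fl/fl replicate 1 and to 0.03 without CD37 -/- replicate 2. In *Mxd3*, as in *Mxd1*, *Mxd4* and *Mxi1*, CD37 fl/fl replicate 1 was above replicate 2, the reverse of the order seen for *Myc*.

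*Mlx* (ENSMUSG00000017801, chr11:101087277-101092207, plus strand), the center of the parallel arm, was measured at 6.79 and 7.89 in CD37 fl/fl against 10.9 and 15.5 in CD37 -/- LSCs. The groups did not overlap and the log2 fold change was 0.75 (standard error 0.25). *Mga* (ENSMUSG00000033943, chr2:119897228-119969581, plus strand) encodes a very large protein with a T-box besides the Max-binding domain, and is a subunit of the noncanonical Polycomb complex PRC1.6. Its FPKM of 0.398 and 0.595 against 0.545 and 0.729 overlapped between the groups. With a mean of 0.566 it was below the filter on low values. The log2 fold change was 0.13 (standard error 0.13) in the fit over all genes above 0, and -0.03 after quantile normalization.

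**Figure D2:**
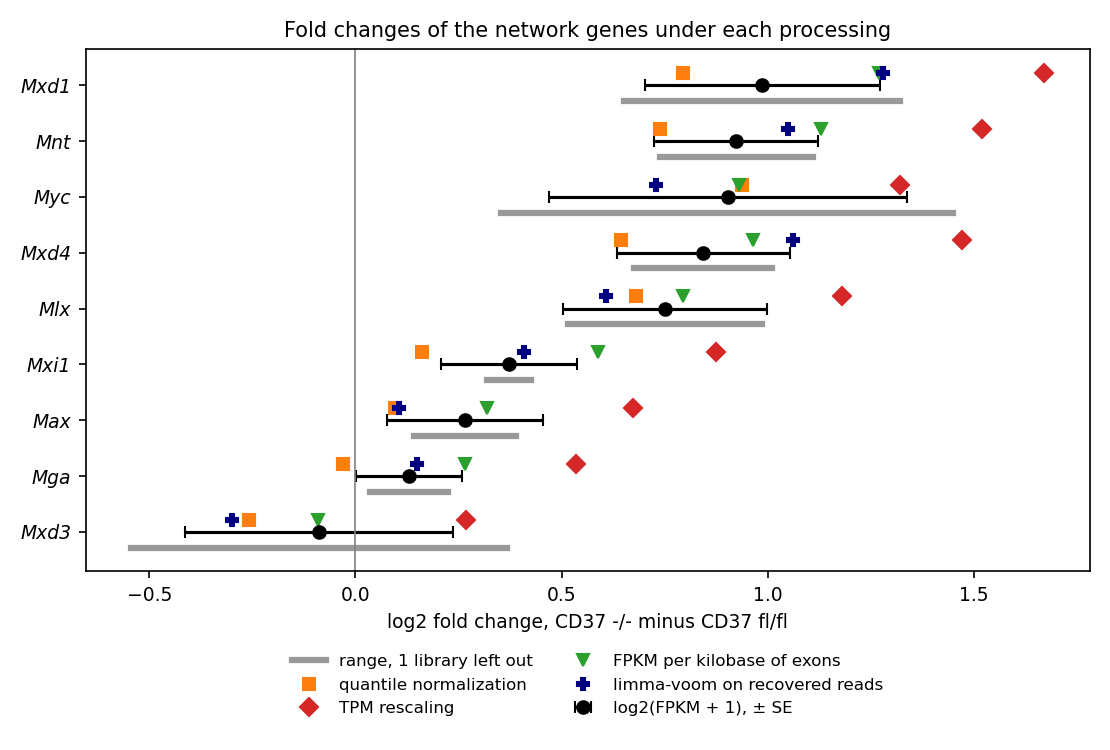
Log2 fold change of each member, CD37 -/- minus CD37 fl/fl, on the log2(FPKM + 1) scale with its standard error, beside the values from other scalings (symbols) and the range with 1 library left out (gray bars). *Myc*, *Max*, *Mnt*, *Mxd1*, *Mxd4*, *Mxi1* and *Mlx* keep 1 sign throughout and *Mxd3* and *Mga* cross the line at 0.

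The median log2 fold change of all 6761 genes was 0.11, and it moved to -0.02 after quantile normalization and 0.49 after TPM rescaling. In the limma-voom fit, over its own 12901 genes, the median was 0.04. Relative to that median in the same fit, *Mxd1* was between 0.81 and 1.24, *Mnt* between 0.75 and 1.03 and *Mxd4* between 0.66 and 1.02. *Myc* was between 0.69 and 0.95, *Mlx* between 0.57 and 0.70 and *Mxi1* between 0.18 and 0.39. *Max* stayed between 0.07 and 0.19 and *Mxd3* between -0.34 and -0.20. *Mnt*, *Mxd1*, *Mxd4*, *Myc* and *Mlx* were thus above the median by more than *Max* and *Mxi1* under each of these 4 scalings.

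Fold changes also moved with transcript length over the whole table. In the limma-voom fit the median log2 fold change was -0.60 for 297 protein-coding genes with under 1 kb of exons, -0.42 for 1 to 2 kb, -0.07 for 2 to 4 kb, 0.14 for 4 to 8 kb and 0.25 for 2023 genes over 8 kb. *Mnt*, *Mxd1* and *Mxi1* have 4 to 8 kb of exons and *Mxd4* and *Mga* over 8 kb, whereas *Myc*, *Max* and *Mxd3* have 2 to 4 kb and *Mlx* 1 to 2 kb. In the same fit *Myc* was at 0.73, *Max* at 0.11, *Mnt* at 1.05 and *Mxd1* at 1.28. *Mxd4* was at 1.06, *Mxi1* at 0.41 and *Mlx* at 0.61. All of these were above the median of their length classes, while *Mxd3* (-0.30) and *Mga* (0.15) were below it. The part of length in the members' values was not tested.

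To compare levels between genes, FPKM was recomputed from the recovered reads per kilobase of exons. In CD37 fl/fl LSCs *Myc* (26.1 ± 14.4) and *Max* (26.1 ± 1.58) were highest and overlapped, followed by *Mlx* (18.1 ± 1.92), *Mxi1* (11.1 ± 0.943), *Mxd3* (8.02 ± 4.31), *Mnt* (5.51 ± 0.29), *Mxd1* (4.46 ± 2.46), *Mga* (2.34 ± 0.658) and *Mxd4* (2.22 ± 0.576; SD, n = 2). From *Mxi1* downward each gene overlapped with its neighbor, so the order of neighbors was not resolved there. Genes further apart could still differ without overlap, such as *Mxi1* (10.4 to 11.8) and *Mnt* (5.30 to 5.71). In CD37 -/- LSCs the levels were 48.2 ± 15.8 for *Myc*, 33.0 ± 4.80 for *Max*, 32.5 ± 8.00 for *Mlx*, 17.2 ± 1.41 for *Mxi1*, 13.4 ± 3.00 for *Mnt*, 11.7 ± 3.09 for *Mxd1*, 7.01 ± 1.02 for *Mxd3*, 5.29 ± 1.13 for *Mxd4* and 3.00 ± 0.614 for *Mga*. Here the neighbors that overlapped were *Max* with *Mlx* and *Mnt* with *Mxd1*. *Mxd3* thus ranked above *Mnt* and *Mxd1* in the mean of CD37 fl/fl LSCs and below both in CD37 -/- LSCs.

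Levels per kilobase of exons were then set against each other within each library, which leaves out any scaling between libraries. Over *Myc* and the 6 antagonists that compete for Max, *Myc* made up 29.1% and 56.1% of the summed level in the CD37 fl/fl libraries against 41.7% and 48.3% in the CD37 -/- libraries. The CD37 -/- values lay between the CD37 fl/fl values, and so did the ratio of *Myc* to the summed *Mnt*, *Mxd* and *Mxi1* level, which was 0.431 and 1.42 in CD37 fl/fl against 0.751 and 0.989 in CD37 -/- LSCs. The share of *Mnt* was higher without overlap, at 9.68% and 8.81% against 12.8% and 12.7%. That of *Mxd4* was higher by less, at 4.80% and 2.80% against 5.06% and 4.97%. *Mga* was lower in share, at 3.42% and 4.33% against 2.89% and 2.80%. The share of *Mxd3* was 20.2% and 7.67% in CD37 fl/fl against 8.71% and 5.12% in CD37 -/- LSCs, that of *Mxi1* 21.5% and 16.1% against 18.2% and 14.8%, and that of *Mxd1* 11.3% and 4.21% against 10.7% and 11.3%. The summed level of the 7 partners per unit of *Max* was 2.19 and 2.38 in CD37 fl/fl against 3.00 and 3.38 in CD37 -/- LSCs, without overlap.

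**Figure D3:**
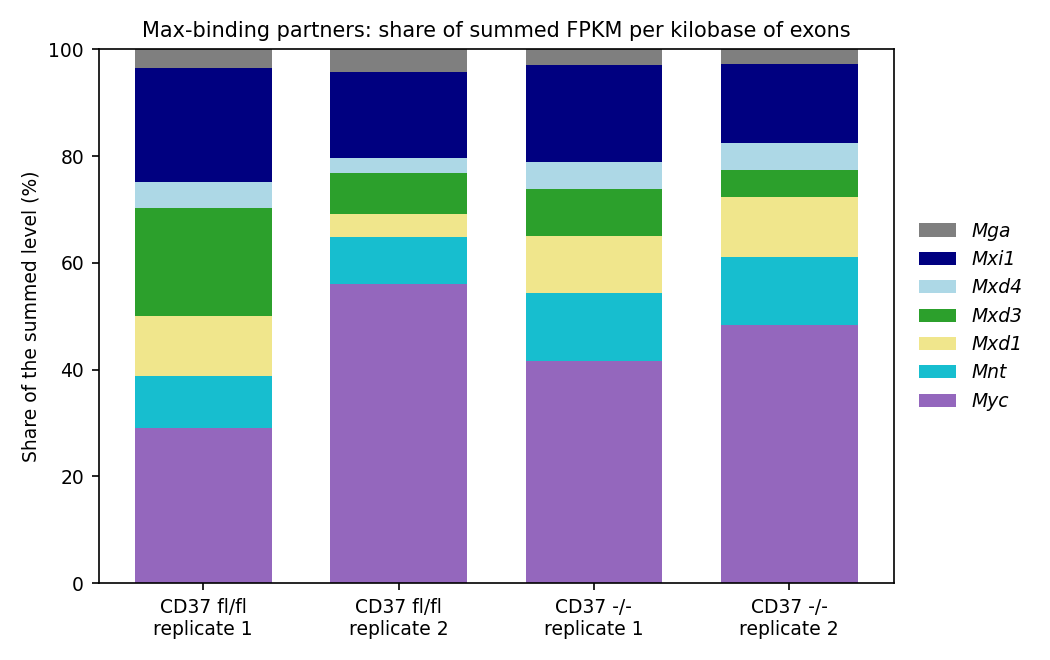
Share of each Max partner in the summed level of the 7 partners, in percent of FPKM per kilobase of exons, as 1 stacked bar per library. The *Myc* share of the CD37 -/- libraries (41.7% and 48.3%) lies between those of the CD37 fl/fl libraries (29.1% and 56.1%).

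Markers of other cells in the gate were summed per kilobase of exons in the same way. Counts of markers higher or lower are those without overlap, beside 37.3% higher and 17.6% lower over all genes above 0. Erythroid markers, led by the beta-globin *Hbb-bs*, were at 90.0 and 8.19 in CD37 fl/fl against 917 and 237 in CD37 -/- LSCs, with 7 of 7 measured markers higher without overlap. Early myeloid progenitor markers, led by *Elane*, were at 7804 and 11072 against 7051 and 6447, with 2 of 8 higher and 4 lower. *Kit*, on which the cells were sorted, was detected at 1.56 and 2.98 against 3.00 and 3.99 per kilobase of exons. Over the whole gene, introns included, its FPKM was 0.170 and 0.325 against 0.327 and 0.434. Pan-leukocyte markers were at 1079 and 683 against 908 and 937, with 2 of 4 higher and 0 lower, and monocyte and macrophage markers at 353 and 243 against 311 and 384, with 1 of 10 higher and 0 lower. Dendritic cell and MHC class II markers were at 1230 and 155 against 54.7 and 204, with 0 of 8 higher and 1 lower. B cell markers were at 30.9 and 37.0 against 20.7 and 16.2, with 2 of 5 higher and 1 lower, and T and NK cell markers at 122 and 152 against 53.0 and 53.6, with 1 of 5 higher and 1 lower. Megakaryocyte markers were between 5.77 and 21.2 and marrow stroma markers between 0.204 and 0.415. No marker was at 0 in all libraries. Erythroid markers were higher in the same libraries as the 7 members above, and their part in the members' values was not tested.

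The genes that work with the network were followed in lists, for which the limma fit over the whole table gave 0 genes with an adjusted p under 0.05. The smallest adjusted p of a listed gene was 0.0649 by limma with Benjamini-Hochberg adjustment, for *Cdkn1b*. The lists are therefore described by the number of genes with an unadjusted p under 0.05, to be read against 16.1% higher and 7.96% lower over all genes tested, and by their median log2 fold change beside 0.11.

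Sin3 and histone deacetylase corepressor genes, which Mnt and the Mxd proteins recruit, were mixed. The median log2 fold change was 0.07 over the 10 tested and -0.12 over 15 genes in the limma-voom fit. Of those 10, 1 was higher and 1 lower at an unadjusted p under 0.05. Both were chromatin-reading Ing subunits of the Sin3 complex, *Ing1* at 0.71 (standard error 0.19) and *Ing2* at -0.62 (standard error 0.21). The FPKM of *Ing2* was 8.30 and 8.29 in CD37 fl/fl against 5.79 and 4.38 in CD37 -/- LSCs. The scaffolds *Sin3a* and *Sin3b* are named after their values were seen. *Sin3a* was below the filter, with 59 and 83 reads in CD37 fl/fl against 187 and 446 in CD37 -/- LSCs, while *Sin3b* had an FPKM of 5.08 and 4.94 against 4.17 and 3.82 (log2 fold change -0.27, standard error 0.18). After TPM rescaling *Sin3b* was at 0.05.

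Coactivators of Myc, among them the histone acetyltransferase subunits of the Tip60 complex, had 3 of 11 tested genes higher and 0 lower at an unadjusted p under 0.05, with a median of 0.29. *Actl6a*, an actin-related subunit shared by Tip60 and SWI/SNF complexes, was highest at 1.05 (standard error 0.26), with an FPKM of 0.918 and 1.81 in CD37 fl/fl against 3.14 and 4.63 in CD37 -/- LSCs. The others were *Kat5*, the acetyltransferase of Tip60 itself, at 0.95 (standard error 0.20) and *Wdr5*, a histone methyltransferase subunit that also binds Myc, at 0.64 (standard error 0.21). *Smarcb1*, a SWI/SNF subunit, was lowest at -0.37 (standard error 0.19).

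Genes that set the stability of the Myc protein had 2 of 12 tested genes higher, 0 lower and a median of 0.27. *Gsk3a*, a kinase that marks Myc for degradation, was highest at 0.80 (standard error 0.20), with an FPKM of 4.76 and 5.14 in CD37 fl/fl against 8.67 and 10.1 in CD37 -/- LSCs. *Pim2*, a kinase that stabilizes Myc, was lowest at -0.21 (standard error 0.17).

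Of the 10 partners of Mga in PRC1.6, all 5 that were tested had positive log2 fold changes, 1 of them at an unadjusted p under 0.05, with a median of 0.34 (and 0.16 after quantile normalization). That count was 0 without CD37 fl/fl replicate 1 or without CD37 -/- replicate 2. Below the filter, *Pcgf6*, the defining subunit of the complex, had 31 and 90 reads in CD37 fl/fl against 126 and 228 in CD37 -/- LSCs, and *L3mbtl2* had 47 and 105 against 221 and 507, both named after their values were seen. In FPKM, 9 of the 10 were higher without overlap, where 37.3% of all genes above 0 were. The highest tested gene was *Tfdp1*, the DNA-binding partner of E2F6, at 0.84 (standard error 0.25). Its FPKM was 3.317 and 4.098 in CD37 fl/fl against 6.005 and 9.131 in CD37 -/- LSCs. *Cbx3*, a heterochromatin protein, was lowest at 0.04 (standard error 0.22) and overlapped. Germline genes that PRC1.6 silences were all below the filter, with 0 of the 9 in the table tested. The highest single value among them was an FPKM of 1.53 for *Tdrkh* in CD37 fl/fl replicate 2, and *Dazl* had 0 reads in all 4 libraries.

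Textbook Myc-induced genes of ribosome assembly, nucleotide and polyamine synthesis and mitochondrial folding did not lie to one side. Of 28 tested, 13 had positive and 15 negative log2 fold changes, with 1 higher and 3 lower at an unadjusted p under 0.05 and a median of -0.02. These counts were 7 and 0 after TPM rescaling and 5 and 0 without CD37 fl/fl replicate 2. The highest were *Ddx18*, a nucleolar helicase, at 0.73 (standard error 0.28), *Nop58*, a core protein of box C/D snoRNPs, at 0.55 (standard error 0.31) and *Cad*, the first enzyme of pyrimidine synthesis, at 0.54 (standard error 0.29). The lowest were *Hspe1*, the mitochondrial co-chaperonin, at -0.89 (standard error 0.30), *Mrto4* at -0.82 (standard error 0.31) and *Ppan* at -0.74 (standard error 0.30), both factors of large ribosomal subunit assembly. *Hspe1* had an FPKM of 72.2 and 96.5 in CD37 fl/fl against 52.3 and 38.1 in CD37 -/- LSCs, without overlap. The median of this list was 0.23 without CD37 fl/fl replicate 2, 0.06 without CD37 -/- replicate 2, 0.36 after TPM rescaling and -0.25 in the limma-voom fit, so its sign was not settled. *Nme1* of this list overlaps *Nme2* in the genome and its reads are uncertain.

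Genes that Myc represses through Miz1 had 1 of 8 tested genes higher and 0 lower at an unadjusted p under 0.05. The median was 0.12 (and -0.03 after quantile normalization). The 8 tested genes include *Zbtb17*, which encodes Miz1 itself, at 0.04. The highest was *Cdkn1b*, the CDK inhibitor p27, at 1.58 (standard error 0.25), with an FPKM of 3.87 and 2.29 in CD37 fl/fl against 10.9 and 11.0 in CD37 -/- LSCs. *Gadd45a*, a stress-response gene, was lowest at -0.45 (standard error 0.24). Genes induced by Mondo-Mlx dimers had 2 of 4 tested genes higher, 0 lower and a median of 0.22 (-0.34 over 5 genes in limma-voom). The count was 0 after quantile normalization, without CD37 fl/fl replicate 1 or without CD37 -/- replicate 2, and 1 without CD37 fl/fl replicate 2. Among the tested genes *Hk2*, the hexokinase at the entry of glycolysis, was at 0.60 (standard error 0.18), with an FPKM of 1.33 and 1.44 against 2.31 and 2.95, and *Tkt*, a transketolase of the pentose phosphate pathway, was lowest at -0.11 (standard error 0.26). The Mondo genes themselves were below the filter. *Mlxip* had 435 and 492 reads in CD37 fl/fl against 611 and 1396 in CD37 -/- LSCs. Its FPKM was 0.4495 and 0.4497 against 0.5455 and 0.9772. *Mlxipl* had 25 to 46 reads in each library.

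Other genes of the same protein class gave 3 tested genes, with 1 higher and 0 lower at an unadjusted p under 0.05 and a median of 0.30 (and 0.00 over the 8 measured genes). The E-box binding factors *Usf2* and *Usf1*, which form dimers with each other and not with Max, lay apart. *Usf2* was at an FPKM of 1.87 and 1.97 in CD37 fl/fl against 4.08 and 4.66 in CD37 -/- LSCs (log2 fold change 0.88, standard error 0.17), and *Usf1* at 13.8 and 10.9 against 8.98 and 8.10 (-0.47, standard error 0.22). *Mycl*, the *Myc* paralog, had 7 and 0 reads in CD37 fl/fl against 1 and 5 in CD37 -/- LSCs.

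**Figure D4:**
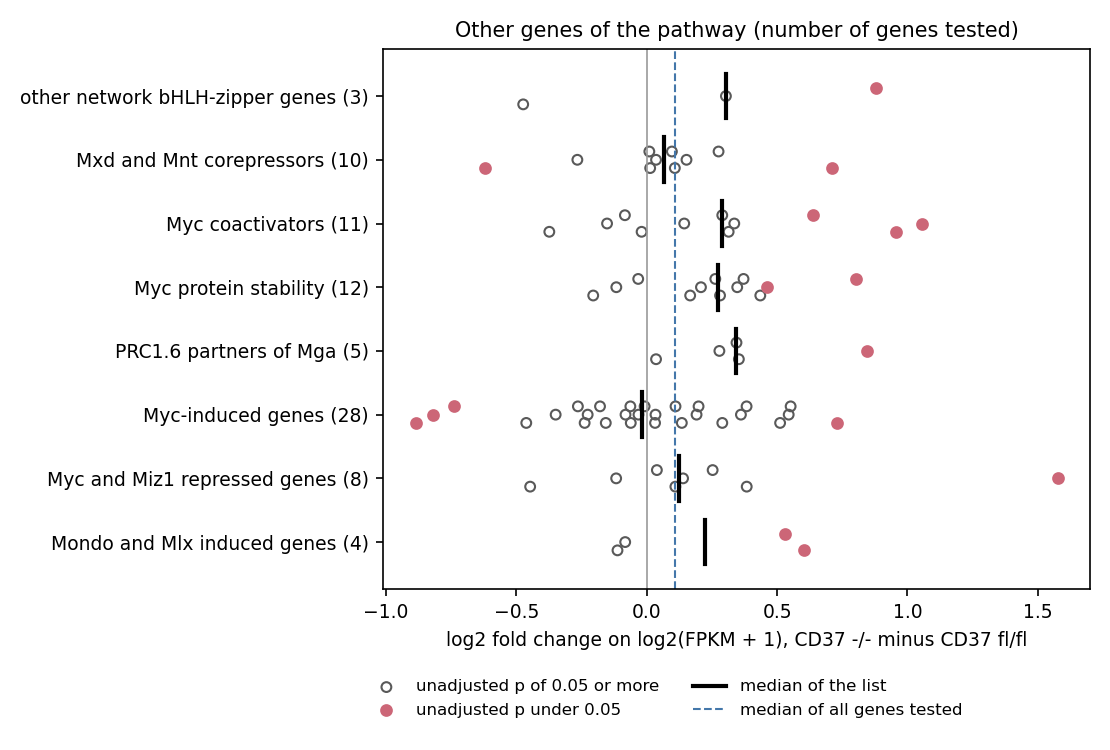
Log2 fold change of each tested gene of the lists, CD37 -/- minus CD37 fl/fl on the log2(FPKM + 1) scale, as open circles, or filled where the unadjusted p was under 0.05, with a black line at the median of each list and a dashed line at the median of all tested genes (0.11). PRC1.6 partners have a median of 0.34 and Myc-induced genes one of -0.02, with genes on both sides of 0.

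The genes whose pattern over the 4 libraries was most like that of *Myc* were found by the largest difference between centered log2(FPKM + 1) values, over 6760 other genes. *Dusp6*, a phosphatase that acts on ERK, was closest with a largest difference of 0.06, and it was the 1 gene within 0.1. Its FPKM was 3.26 and 8.08 in CD37 fl/fl against 8.37 and 14.6 in CD37 -/- LSCs. The second CD37 fl/fl library was near the first CD37 -/- library, as the choice by likeness to *Myc* requires. *Gm9826*, a processed pseudogene whose reads may belong to its parent gene, followed at 0.11, and *Pabpc1*, the cytoplasmic poly(A)-binding protein, at 0.13 with an FPKM of 28.4 and 57.8 against 70.1 and 104. With 4 libraries these likenesses are a description only.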

How the data were processed

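The authors deposited FPKM values on a linear scale, with a column for each library and none pooled. The submitters' processing notes list fastp 0.20.1, STAR 2.7.7a, featureCounts 2.0.0, edgeR and the build mm39. The table has no coordinates. Gene names, positions and lengths were taken here from GENCODE M21 on GRCm38, which matched 17045 of 17104 identifiers (99.7%), and promoters from RefSeq on GRCm38.p6, so positions are not those of mm39. FPKM times gene span gave whole reads (within 0.05) in all libraries for 16843 genes (98.8% of those matched). This uses the depth implied by the values and covers counting only. Groups were taken from the genotype labels, and no column was left unused.

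Values were transformed as log2(FPKM + 1), which shrinks the differences of weakly expressed genes. Genes averaging an FPKM of 1 or more entered a two-sided limma test (version 3.58.1, R 4.3.3; lmFit, then eBayes with trend), p-values were adjusted by the Benjamini-Hochberg method and the threshold was 0.05. Python 3.11.15, pandas 2.3.3, numpy 2.4.6 and matplotlib 3.10.9 were used for tables and figures, and the code was tested on simulated data. In those data, limma recovered 14% of genes changed by a log2 of 1 at the adjusted threshold, and 78% of those changed by 2. A count of 0 at that threshold therefore says little about changes of the size seen for the members. The members and lists were chosen with earlier results of these data known. All 9 members are named, with the highest and lowest tested gene of each list (3 of each for Myc-induced genes), *Cd37*, the 3 genes most like *Myc* and leading markers. Other named genes were chosen after their values were seen. Alternatives were a pseudocount of 0.1, all genes above 0, quantile normalization, TPM, FPKM per kilobase of exons, limma-voom with trimmed-mean factors on the recovered reads (12901 genes averaging 10 reads or more), the replicate number as a block and each library left out in turn.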

Additional observations from a re-analysis of the deposited data

How the results depend on the processing

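With 2 libraries per group, 1 library can set a mean, and a library left alone in its group is assumed to vary like the other group. The count of genes at an adjusted p under 0.05 (limma, Benjamini-Hochberg), 0 as reported, was 16 with FPKM per kilobase of exons and 0 in the other alternatives but the block. The replicate numbers were not used to pair the libraries: the deviations of same-numbered libraries had a correlation of -0.04 over 6761 genes, and with the replicate block 73 genes passed. The unadjusted count of 1626 was 2911 with all genes above 0, 2639 with FPKM per kilobase of exons, 3091 with limma-voom, and between 809 and 1593 with 1 library left out. Higher genes made up 66.9% of these calls, 48.0% after quantile normalization, 91.4% after TPM rescaling, 73.9% with exon length, 73.2% with all genes above 0, 52.6% with limma-voom and 59.7% to 74.4% with 1 library left out. Members higher without overlap numbered 7, against 5 to 8 in the alternatives, and lower ones 0, against 0 to 1 with 1 library left out (1 without CD37 fl/fl replicate 2). *Mxd3* turned to 0.27 (TPM), 0.37 (without CD37 fl/fl replicate 1) and 0.03 (without CD37 -/- replicate 2), with leave-one-out values from -0.54 to 0.37, and *Mga* to -0.0302 (quantile). No member changed sign otherwise, and 0 members had an adjusted p under 0.05 in any fit.

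List medians moved as follows, and the cause was not tested. With exon length, limma-voom and all genes above 0, a list can hold more tested genes than in the main fit. After TPM rescaling, which shifts the median of all genes to 0.49, they were 0.74 for other bHLH-zipper genes, 0.44 for corepressors, 0.71 for coactivators, 0.69 for Myc stability, 0.79 for PRC1.6, 0.36 for Myc-induced, 0.52 for Miz1-repressed and 0.71 for Mondo-Mlx genes. After quantile normalization they were 0.11 for other bHLH-zipper genes, 0.16 for PRC1.6, -0.0881 for corepressors, 0.0806 for coactivators, 0.17 for Myc stability, 0.0684 for Myc-induced and -0.0312 for Miz1-repressed genes. With exon length they were 0.50 for coactivators, 0.38 for Myc stability, 0.64 for PRC1.6, 0.18 for Miz1-repressed and -0.11 for Mondo-Mlx genes. With limma-voom they were 0.08 for other bHLH-zipper genes, -0.12 for corepressors, -0.25 for Myc-induced, 0.0318 for Miz1-repressed and -0.34 for Mondo-Mlx genes. With all genes above 0 they were -0.00174 for other bHLH-zipper and -0.0828 for Mondo-Mlx genes. A pseudocount of 0.1 gave 0.18 for Miz1-repressed and 0.38 for Mondo-Mlx genes. With 1 library left out they ranged from 0.11 to 0.50 for other bHLH-zipper genes, -0.0564 to 0.19 for corepressors, 0.14 to 0.33 for coactivators, 0.15 to 0.37 for Myc stability, 0.14 to 0.57 for PRC1.6, -0.24 to 0.23 for Myc-induced, 0.0759 to 0.21 for Miz1-repressed and 0.16 to 0.45 for Mondo-Mlx genes. Germline genes, untested as reported, had a median of -0.00249 over 8 genes with all genes above 0, and of -0.78 over 4 genes with limma-voom. Over all alternatives, the number of genes higher at an unadjusted p under 0.05 ranged from 0 to 3 for corepressors, 2 to 4 for coactivators, 0 to 4 for Myc stability, 0 to 3 for PRC1.6, 0 to 7 for Myc-induced, 1 to 3 for Miz1-repressed and 0 to 2 for Mondo-Mlx genes, and was 1 throughout for other bHLH-zipper genes. The number lower ranged from 0 to 2 for corepressors, 0 to 4 for Myc-induced and 0 to 1 for coactivators, Miz1-repressed and other bHLH-zipper genes, and was 0 throughout for Myc stability, PRC1.6 and Mondo-Mlx genes.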
